A study of Mus musculus with 3 samples.

Results

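MHC class II and its loading machinery were described here through 10 mouse genes, chosen by symbol from the 34099 genes of a single-cell RNA-seq count table: the chains H2-Aa (ENSMUSG00000036594), H2-Ab1 (ENSMUSG00000073421) and H2-Eb1 (ENSMUSG00000060586), the invariant chain Cd74 (ENSMUSG00000024610), the regulator Ciita (ENSMUSG00000022504), the peptide loaders H2-DMa (ENSMUSG00000037649), H2-DMb1 (ENSMUSG00000079547) and H2-DMb2 (ENSMUSG00000037548), and the loading inhibitors H2-Oa (ENSMUSG00000024334) and H2-Ob (ENSMUSG00000041538). All 10 had a row in the table. The tissue was liver from mice that all received 500 mg/kg acetaminophen (APAP), a drug whose overdose kills hepatocytes. At 6 h after APAP, 1 mouse was infused with mesenchymal stromal cells (MSCs) engineered with bispecific polyvalent peptides (Engineered MSC), 1 with unmodified MSCs (Native MSC) and 1 with PBS alone, and the livers were taken 4 days later. Each group is therefore 1 animal and 1 library, no test between groups is possible, and the strain, age and sex of the mice are not given in the sources used here. No liver without APAP was analysed here, so PBS stands for an injured liver that received no cells.

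MHC class II molecules are pairs of an alpha and a beta chain that carry peptides from engulfed proteins to the cell surface, where CD4 T cells read them. H2-Aa and H2-Ab1 encode the alpha and beta chain of I-A, and H2-Eb1 the beta chain of I-E. Cd74 encodes the invariant chain, which holds the peptide groove closed on the way to the loading compartment. There the H2-DM dimer (H2-DMa with H2-DMb1 or H2-DMb2) exchanges the last invariant chain fragment for a peptide, and the H2-O dimer (H2-Oa with H2-Ob) restrains H2-DM, chiefly in B cells. Ciita encodes the coactivator that switches the whole set on. It binds no DNA itself but docks on factors at the X and Y boxes of the promoters. In liver the set is known from dendritic cells, B cells, Kupffer cells (the resident macrophages) and, at low levels, sinusoidal endothelium, while interferon-gamma induces Ciita in macrophages and endothelium.

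The promoter windows of 5 members are shown because X and Y boxes are where Ciita acts, and because they set chain genes (H2-Aa, H2-Eb1) beside the 2 members that followed the main transcripts least (H2-DMb2, H2-Ob). Sequences are those of RefSeq on build GRCm38.p6 (the counts were made on GRCm39), 5′ to 3′ on the strand of the gene, and capitals mark the Y box ATTGG and the X box core ACNGATG.
H2-Aa: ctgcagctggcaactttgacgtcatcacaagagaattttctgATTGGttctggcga
H2-Eb1: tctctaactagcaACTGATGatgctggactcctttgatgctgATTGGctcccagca
H2-DMb1: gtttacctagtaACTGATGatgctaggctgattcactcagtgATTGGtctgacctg
H2-DMb2: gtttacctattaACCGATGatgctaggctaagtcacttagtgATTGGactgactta
H2-Ob: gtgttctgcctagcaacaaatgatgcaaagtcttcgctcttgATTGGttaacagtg
These windows lie at chr17:34287858-34287913 (minus strand) for H2-Aa, chr17:34305766-34305821 for H2-Eb1, chr17:34153088-34153143 for H2-DMb1, chr17:34145117-34145172 for H2-DMb2 and chr17:34238806-34238861 for H2-Ob, the last 4 on the plus strand. The Y box stood 48 bases before the gene's start in H2-Aa, 59 in H2-Eb1, 61 in H2-DMb1, 90 in H2-DMb2 and 57 in H2-Ob. In H2-Eb1 the X box core began 29 bases before the Y box, and in H2-DMb1 and H2-DMb2 it began 30 bases before it. Such a spacing of 28 to 31 bases on 1 strand was found in 17 of 32851 promoter windows of 300 bases (0.0517%), and 3 of those 17 belong to these members. Searched on both strands, the Y box alone was common, with 37.4% of all promoter windows holding it, and 9.85% held the X box core; the motifs do not overlap each other in the windows shown. H2-Aa and H2-Ob held no match to the X box letters in the windows shown, which says only that these letters are not there. Promoter entries were matched for 7 of the 10 members, and H2-Ab1, Cd74 and Ciita had none.

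The 3 libraries held 11028, 11479 and 10739 cell barcodes (Engineered MSC, Native MSC, PBS), of which 9129, 9179 and 9537 cells were kept. Total UMIs (unique molecular identifiers, each standing for 1 captured RNA molecule) were 62564254 in Engineered MSC, 84950721 in Native MSC and 82247448 in PBS, and the median kept cell had 3667, 5673 and 5783 UMIs. Pairs of libraries shared 39 to 46 barcodes. Because 3′ counting takes each molecule once whatever its length, levels are given as CPM, the UMIs of a gene scaled to a common total, from the sum over all cells of a class in a library. Every interval is a 95% exact interval and covers counting error only, not the differences between animals.

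Cell classes were rebuilt by clustering, with the 10 members kept out of the clustering genes, and were named "X-like" from marker genes among which no class II gene stands. Engineered MSC, Native MSC and PBS held 364, 764 and 1970 macrophage-like cells, 351, 32 and 675 Kupffer cell-like cells, and 289, 2873 and 2771 monocyte-like cells. Dendritic cell-like cells numbered 267, 128 and 432, B cell-like cells 1607, 338 and 593, and endothelium-like cells 1815, 133 and 1087. Different clusters held most of several classes in different libraries. Of the macrophage-like cells, cluster 11 (Spp1, Pf4, Ccl7, Fabp5, Trem2) held 350, 731 and 53, and cluster 1 (Gpnmb, Lpl, Mmp12) 14, 33 and 1917. B cell-like cells of Engineered MSC were nearly all cluster 3 (1594 cells, against 4 in Native MSC and 1 in PBS), and its endothelium-like cells mostly cluster 4 (1550 cells, against 4 and 0). Values of some members within a cluster are therefore given beside those of a class in the results below. Genes outside the members are given by class only.

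In summed CPM of H2-Aa, dendritic cell-like cells stood above B cell-like cells, and both above the other classes given here. H2-Aa reached 6495, 5792 and 6195 CPM in dendritic cell-like cells of Engineered MSC, Native MSC and PBS, and 3407, 4423 and 3550 CPM in B cell-like cells. Macrophage-like, Kupffer cell-like and monocyte-like cells lay between 94.1 and 799 CPM, with ranges that overlapped, so no order among these 3 classes held across the libraries. Endothelium-like cells had 7.06 to 62.6 CPM, which overlapped the range of hepatocyte-like cells (18.7 to 79.0), neutrophil-like cells (13.9 to 55.3) and T cell-like cells (12.4 to 99.95). Neutrophils, T cells and hepatocytes are not known as class II presenting cells in the mouse, and their values serve here as the level that free RNA in the droplets gives. By that measure the endothelium-like class was at background. By share of cells with at least 10 UMIs of H2-Aa, H2-Ab1, H2-Eb1 and Cd74 summed per 1000, B cell-like cells stood highest. That share was 81.0%, 95.5% and 84.5% in them, against 61.7%, 50.4% and 59.2% in dendritic cell-like cells.

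**Figure D1:**
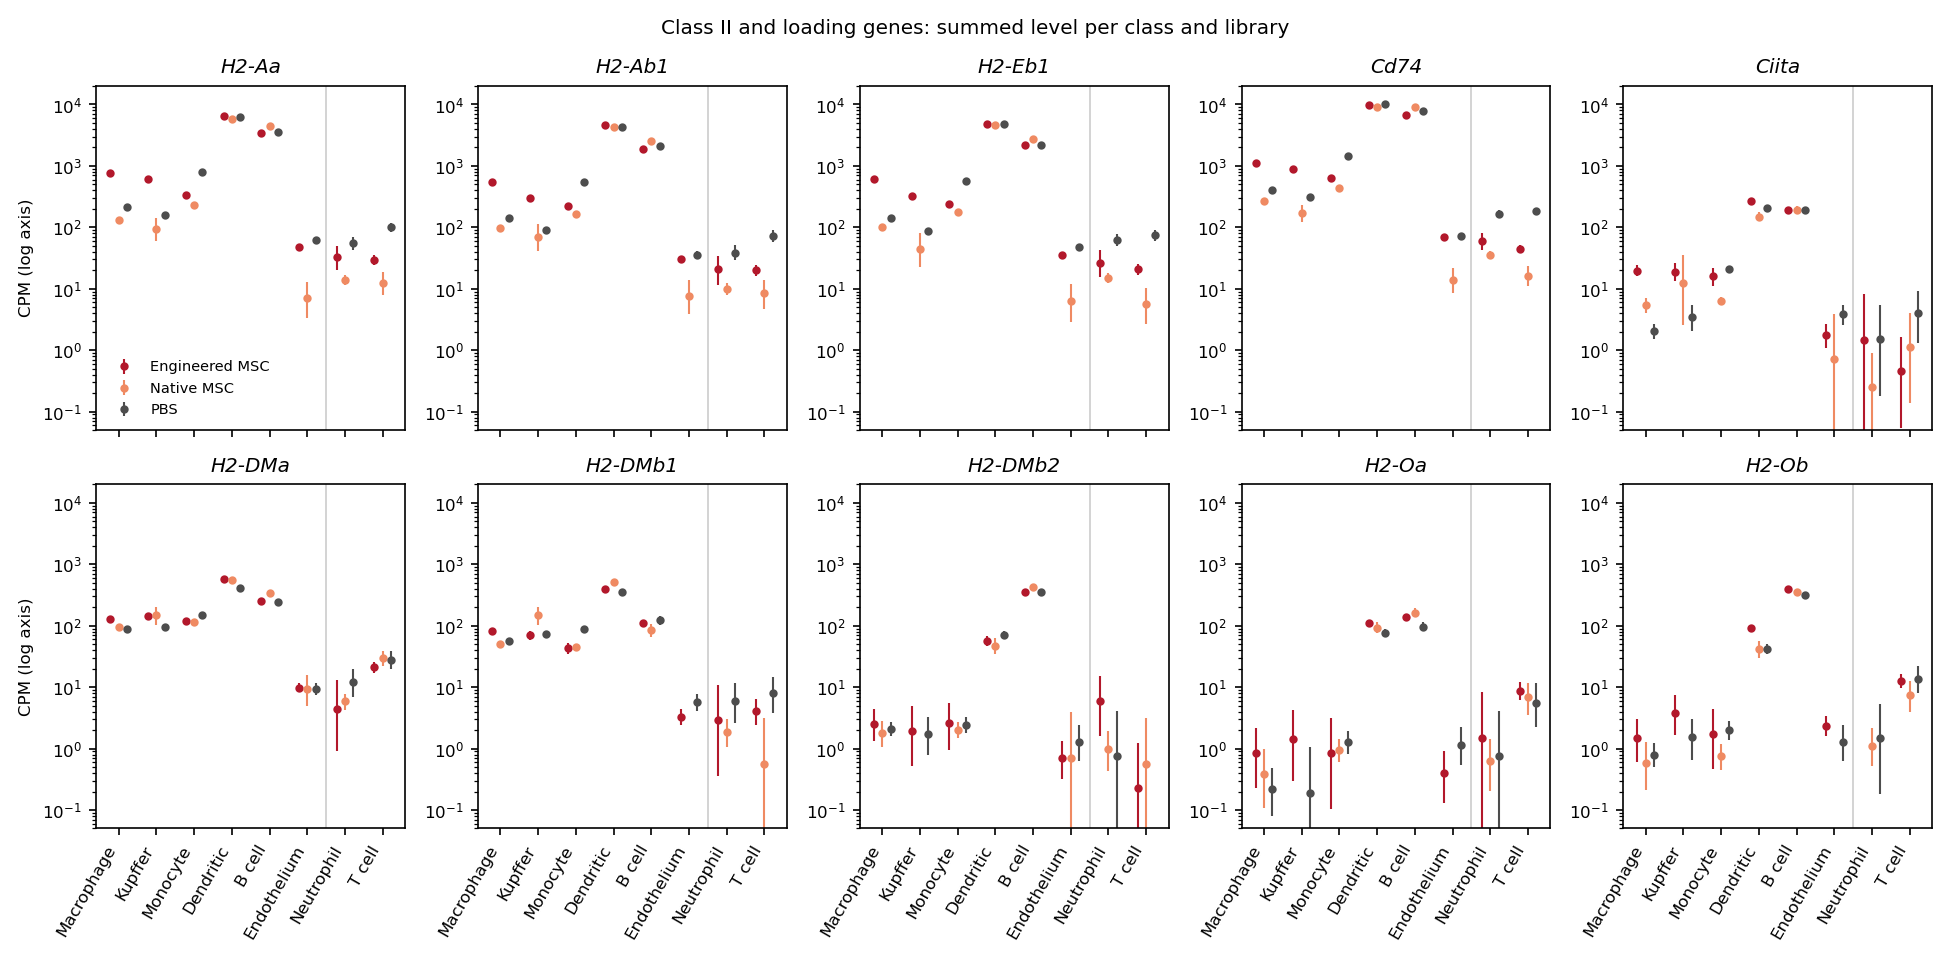
Level of each of the 10 members in CPM (log axis) in 8 cell classes, with Engineered MSC, Native MSC and PBS from left to right in each class and bars for the 95% Poisson interval. Dendritic cell-like and B cell-like cells stand highest for H2-Aa (3407 to 6495 CPM), while neutrophil-like and T cell-like cells stay at or under 99.95 CPM.

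Macrophage-like cells of Engineered MSC had the highest level of the class II chains among the 3 libraries. H2-Aa was 777 CPM (752 to 803) in Engineered MSC, against 129.6 CPM (123 to 137) in Native MSC and 211 CPM (206 to 217) in PBS. H2-Ab1, the partner chain, was 553, 98.9 and 141.5 CPM, and H2-Eb1 611, 99.9 and 145 CPM. Engineered MSC stood above PBS and PBS above Native MSC for all 3 chains, and no intervals overlapped. Against PBS, Engineered MSC was 3.68 times as high for H2-Aa (3.53 to 3.84), 3.91 times for H2-Ab1 (3.72 to 4.11) and 4.22 times for H2-Eb1 (4.03 to 4.43). Against Native MSC the 3 ratios were 6.00, 5.59 and 6.12. Native MSC had 0.614 times the PBS level of H2-Aa (0.578 to 0.652).

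Cd74, the invariant chain, followed the same order with a smaller ratio. It was 1124 CPM in Engineered MSC macrophage-like cells, 272 CPM in Native MSC and 399.6 CPM in PBS, 2.81 times the PBS level in Engineered MSC (2.72 to 2.91). Ciita, the regulator, was at 19.8 CPM (16.0 to 24.3) in Engineered MSC, 5.38 CPM (4.05 to 7.005) in Native MSC and 2.04 CPM (1.54 to 2.65) in PBS. It was the member with the widest ratio, 9.74 times the PBS level in Engineered MSC (6.92 to 13.8), which rests on 94 and 56 UMIs. Unlike the chains, Ciita was also higher in Native MSC than in PBS, 2.64 times (1.79 to 3.90).

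The loading genes differed less. H2-DMa was at 129 CPM in Engineered MSC, 95.5 CPM in Native MSC and 87.3 CPM in PBS macrophage-like cells, and H2-DMb1 at 83.3, 50.2 and 55.5 CPM. Both were about 1.5 times as high in Engineered MSC as in PBS, with a ratio of 1.48 for H2-DMa (1.35 to 1.61) and 1.5 for H2-DMb1 (1.34 to 1.68). H2-DMb2, H2-Oa and H2-Ob were scarce, at 2.53, 0.844 and 1.48 CPM in Engineered MSC and no more than 2.11 CPM in Native MSC or PBS. These 3 genes were thus rare in macrophage-like cells of all libraries, with 4 to 58 UMIs a library.

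By the count of members, 5 of the 9 with at least 20 UMIs in the pair were at least 2-fold higher in Engineered MSC than in PBS and 0 were at least 2-fold lower, where 8.12% and 5.29% of all genes measured in the class were. The median log2 ratio was 1.49 over the members and 0.03 over all genes. Between Engineered MSC and Native MSC, 5 of 8 members were at least 2-fold higher (5.18% of all genes) and 0 lower (1.60%). Between Native MSC and PBS, 1 of 9 was at least 2-fold higher (6.20% of all genes) and 0 lower (6.92%), and that member was Ciita.

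**Figure D2:**
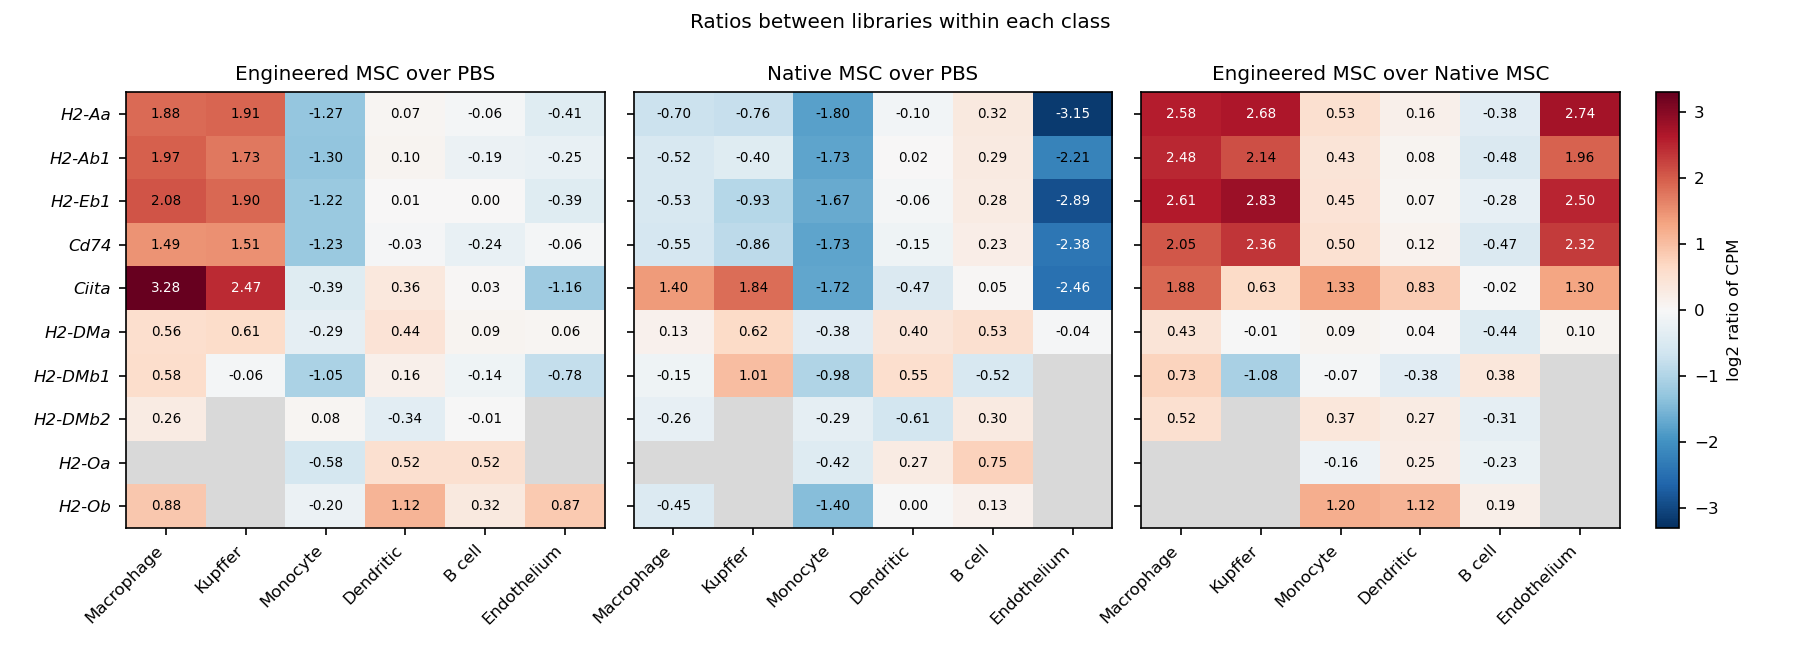
Log2 ratio of each member (down the page) in 6 cell classes (across) for Engineered MSC over PBS, Native MSC over PBS and Engineered MSC over Native MSC, with grey for pairs under 20 UMIs or with 0 in 1 library. In Engineered MSC over PBS the 4 main transcripts are positive in macrophage-like cells (1.49 to 2.08) and Kupffer cell-like cells (1.51 to 1.91) and negative in monocyte-like cells (-1.30 to -1.22).

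The difference from PBS in macrophage-like cells depended on which macrophages were set side by side. Within cluster 11, which holds most macrophage-like cells of both MSC libraries and 53 of PBS, H2-Aa was 811 CPM in Engineered MSC, 111 CPM in Native MSC and 684 CPM in PBS. Engineered MSC was then 1.19 times the PBS level (1.04 to 1.36) and 7.31 times the Native MSC level (6.83 to 7.84). Cd74 was 1178 CPM in Engineered MSC, 240.0 CPM in Native MSC and 1245 CPM in PBS, so its direction against PBS was the other way. Ciita was 20.2, 4.96 and 5.67 CPM, with 2 UMIs in PBS, and its ratio to PBS had an interval from 0.959 to 29.9. Within cluster 1, which held nearly all PBS macrophage-like cells, H2-Aa was 338 CPM in 14 Engineered MSC cells, 461 CPM in 33 Native MSC cells and 205 CPM in PBS. The low H2-Aa of Native MSC against Engineered MSC was therefore seen within cluster 11, and the order was the other way in the few cells of cluster 1. The gap in H2-Aa between PBS and Engineered MSC was much smaller within cluster 11. When cells were classed by their markers with no clusters, H2-Aa was 481 CPM in 171 Engineered MSC cells, 238 CPM in 907 Native MSC cells and 405 CPM in 2741 PBS cells, and 0 members were at least 2-fold higher than in PBS. Of those PBS cells, 503 (18.4%) were monocyte-like by clusters.

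The share of macrophage-like cells with a UMI of H2-Aa or Cd74 gave the same order of the libraries as the CPM once depth was made equal. Thinned to 1000 UMIs a cell, H2-Aa was detected in 26.7% of Engineered MSC, 7.40% of Native MSC and 13.2% of PBS macrophage-like cells. Cd74 was detected in 33.1%, 11.04% and 19.8%, and Ciita in 2.76%, 0.269% and 0.411%. For Ciita these shares put Native MSC below PBS, against the order of its CPM, so no order of these 2 libraries is read from them. Neutrophil-like cells thinned alike gave 2.98%, 1.51% and 4.42% for H2-Aa, and T cell-like cells 0.993%, 2.37% and 2.72%, so the macrophage-like shares of H2-Aa lay above background in all 3 libraries. Without thinning, H2-Aa was detected in 47.2%, 23.4% and 53.8% of macrophage-like cells, with median depths of 10999.5, 12770.5 and 12446 UMIs, against 5.79%, 4.03% and 9.31% of neutrophil-like cells at 2672.5, 2830 and 2139 UMIs. The unthinned order of Engineered MSC and PBS runs against the CPM, and no order is read from it.

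**Figure D3:**
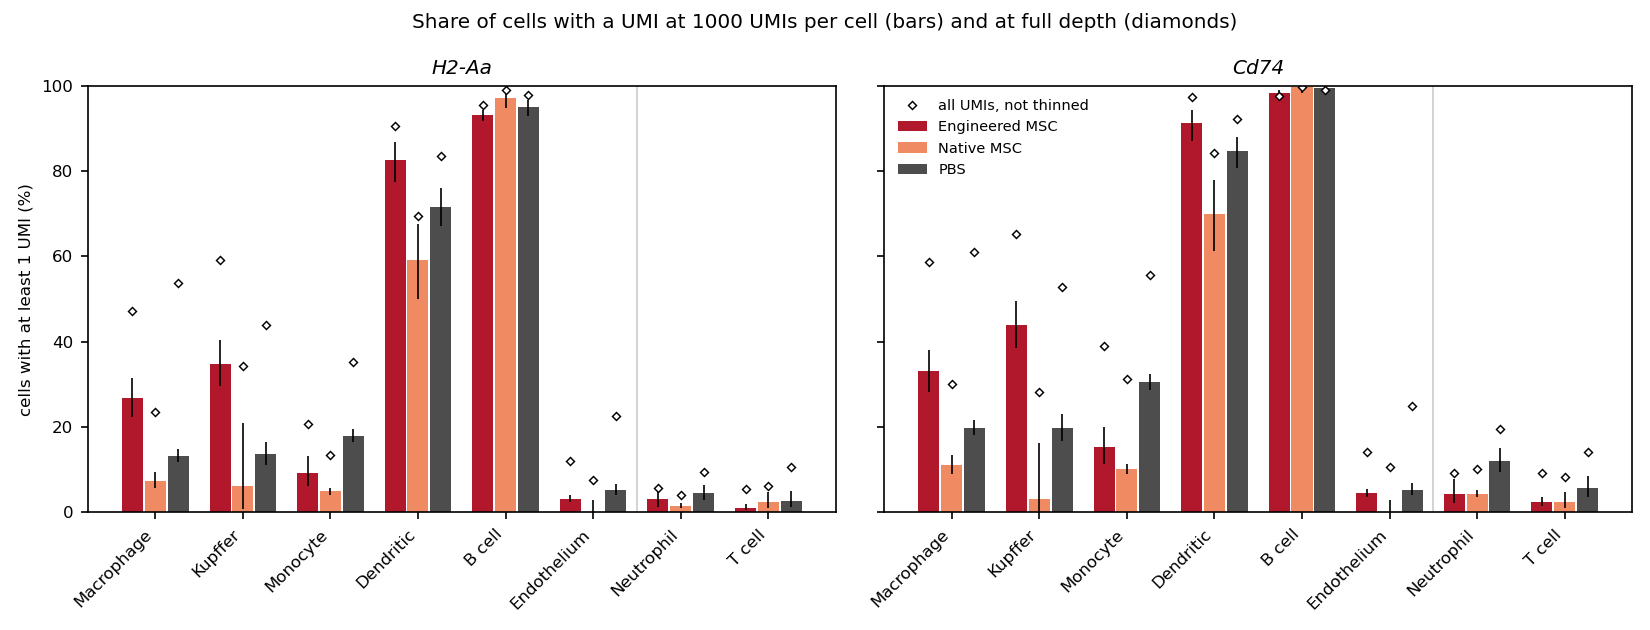
Share of cells with a UMI of H2-Aa and of Cd74 in each cell class after thinning to 1000 UMIs (bars with 95% binomial intervals) and without thinning (diamonds), with Engineered MSC, Native MSC and PBS from left to right. In macrophage-like cells the thinned H2-Aa bars read 26.7%, 7.40% and 13.2%, and in neutrophil-like cells 2.98%, 1.51% and 4.42%.

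The class II RNA of Engineered MSC macrophage-like cells was spread unevenly over the cells. At 1000 UMIs a cell, 54 of 363 Engineered MSC macrophage-like cells (14.9%) had at least 10 UMIs of the 4 main transcripts (H2-Aa, H2-Ab1, H2-Eb1 and Cd74 summed), against 13 of 743 in Native MSC (1.75%) and 33 of 1949 in PBS (1.69%). Cells with none of these transcripts made up 59.5%, 84.4% and 69.0%. The median cell had 0 in each library, while the 90th percentile was 21.6 UMIs in Engineered MSC, 1 in Native MSC and 2 in PBS. Taken at whole-cell depth, 58 Engineered MSC cells reached 10 per 1000 UMIs, 57 of them in cluster 11, and 14 cells lay between 8 and 12. In cluster 11 that share was 16.3% in Engineered MSC (12.6 to 20.6%), 1.27% in Native MSC (0.581 to 2.39%) and 6.38% in PBS (1.34 to 17.5%, 3 of 47 cells).

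**Figure D4:**
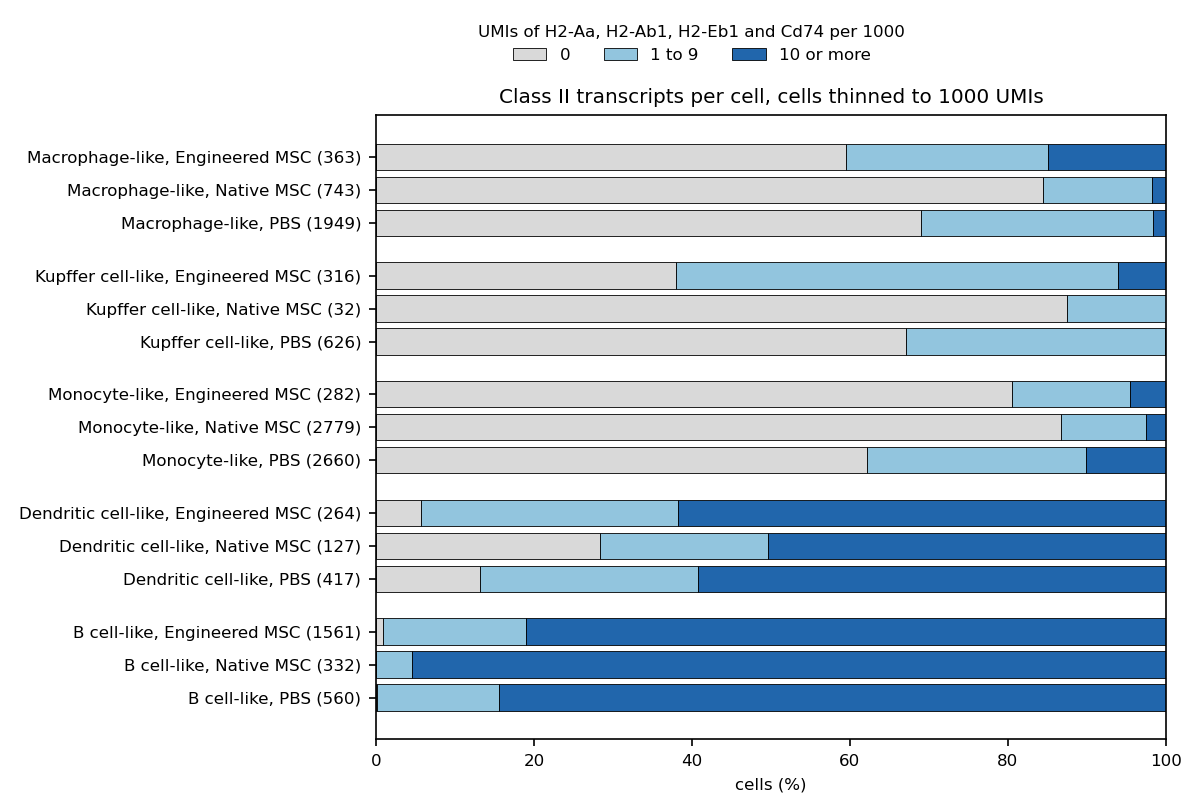
Share of cells with 0, 1 to 9, and 10 or more UMIs of H2-Aa, H2-Ab1, H2-Eb1 and Cd74 summed, per 1000 UMIs, by class and library (Engineered MSC, Native MSC and PBS from top to bottom). The right-hand segment is 14.9%, 1.75% and 1.69% in macrophage-like cells and 81.0%, 95.5% and 84.5% in B cell-like cells.

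Markers of other presenting cells were looked for in the macrophage-like class. In Engineered MSC the 58 high cells had a median of 6075 UMIs, against 12347 in the 305 other cells. Their median summed level of macrophage markers was 15090 CPM, against 14310 CPM in the others, and for B cell markers it was 347.5 against 61.75 CPM, for type 1 dendritic cell markers 1026 against 240.2 CPM and for patrolling monocyte markers 376 against 109 CPM. For type 2 dendritic cell markers both medians were 0, and the means were 117 against 50.1 CPM. Over the whole class, 10, 9 and 10 of 10 B cell markers were detected in Engineered MSC, Native MSC and PBS, with a summed level of 181, 98.1 and 88.5 CPM. The Engineered MSC value was 1.34% of that of B cell-like cells in the same library, while H2-Aa stood at 22.8% of its B cell-like level. Of 8 type 2 dendritic cell markers 7, 6 and 8 were detected, at 60.8, 56.8 and 128 CPM summed, with Ccr6 at 0 in both MSC libraries and Cd209a at 0 in Native MSC. These sums were 5.09%, 5.85% and 12.8% of the dendritic cell-like level (Engineered MSC, Native MSC, PBS). H2-Aa stood at 12%, 2.24% and 3.41% of its dendritic cell-like level. The share of the markers was thus below that of H2-Aa in Engineered MSC and above it in Native MSC and PBS. Type 1 dendritic cell markers summed to 384, 239 and 586 CPM and hepatocyte markers to 2445, 864 and 562 CPM. The part these cells or their RNA had in the result was not tested.

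Kupffer cell-like cells of Engineered MSC also stood above PBS, and here the same cluster held most cells of both libraries. H2-Aa was 602 CPM (569 to 636) in Engineered MSC and 159.6 CPM (149 to 171) in PBS, 3.77 times as high (3.45 to 4.12). H2-Ab1 was 3.32 times, H2-Eb1 3.73 times and Cd74 2.84 times the PBS level. Ciita was 19.0 CPM in Engineered MSC and 3.44 CPM in PBS, a ratio of 5.54 (3.102 to 10.3) from 40 and 18 UMIs. All 4 main transcripts and Ciita were thus higher in Engineered MSC Kupffer cell-like cells. Native MSC held only 32 such cells, with 94.1 CPM of H2-Aa (59.7 to 141) and 172 CPM of Cd74, from 23 and 42 UMIs. With each library clustered on its own, Native MSC had 147 Kupffer cell-like cells and 39.1 CPM of H2-Aa. In Native MSC over PBS 2 of 7 members, Ciita on 3 UMIs and H2-DMb1 at 147 against 73.1 CPM, were at least 2-fold higher (7.99% of all genes) and 0 lower (20.4%). In Engineered MSC over Native MSC 4 of 7, the 4 main transcripts, were at least 2-fold higher (20.7% of all genes) and 1, H2-DMb1, lower (4.18%).

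H2-DMa was 1.53 times the PBS level in Engineered MSC Kupffer cell-like cells (1.32 to 1.77), and H2-DMb1, its partner, was 69.9 against 73.1 CPM, with an interval of the ratio from 0.785 to 1.16. In all, 5 of 7 members were at least 2-fold higher in Engineered MSC, against 11.6% of all genes of the class, and 0 were at least 2-fold lower, against 5.76%. Within cluster 13, which holds 280 of the Engineered MSC and 615 of the PBS cells, H2-Aa was 714.5 CPM in Engineered MSC and 167 CPM in PBS, 4.29 times as high (3.90 to 4.71). Ciita there was 23.5 CPM in Engineered MSC and 3.90 CPM in PBS. Thinned to 1000 UMIs, H2-Aa was detected in 34.8% of Engineered MSC and 13.6% of PBS Kupffer cell-like cells, and unthinned in 59.3% and 43.9% at median depths of 4108 and 6076 UMIs. Both are above the 2.98% and 4.42% of neutrophil-like cells. Cells with at least 10 UMIs of the 4 main transcripts per 1000 were 19 of 316 in Engineered MSC (6.01%) and 1 of 626 in PBS (0.160%), so in this class more cells carried some of the RNA and few carried much. B cell markers summed to 4.24% of the B cell-like level in Engineered MSC and 2.19% in PBS. Cd79a with Cd79b summed to 0.889% and 0.437% of it, while H2-Aa was at 17.7% and 4.49%. Type 2 dendritic cell markers summed to 5.02% and 5.34% of the dendritic cell-like level, and H2-Aa was at 9.26% and 2.58% of it. Of the 8 type 2 dendritic cell markers 5 were detected in Engineered MSC and 7 in PBS, at 59.9 and 53.4 CPM summed, with Cd209a, Mgl2 and Ccr6 at 0 in Engineered MSC and Ccr6 at 0 in PBS. Markers of other cells were higher in Engineered MSC as well, with sinusoidal endothelial markers at 2851 against 538 CPM, hepatocyte markers at 3013 against 486 CPM and erythroid markers at 2338 against 57.4 CPM. The part of these cells or of their RNA in the result was not tested.

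Monocyte-like cells went the other way, with PBS the highest. H2-Aa was 332 CPM (309 to 356) in Engineered MSC, 229.9 CPM (224 to 236) in Native MSC and 799 CPM (786 to 813) in PBS. Cd74 was 625, 442 and 1465 CPM in the same order of libraries. Engineered MSC had 0.415 times the PBS level of H2-Aa (0.386 to 0.447) and 0.426 times that of Cd74, and Native MSC 0.288 times (0.279 to 0.297) and 0.301 times. H2-Ab1 and H2-Eb1 gave ratios of 0.407 and 0.428 for Engineered MSC and 0.302 and 0.314 for Native MSC.

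Ciita in monocyte-like cells was 15.9 CPM in Engineered MSC, 6.35 CPM in Native MSC and 20.9 CPM in PBS. For Engineered MSC the interval of the ratio to PBS ran from 0.527 to 1.07, and for Native MSC the ratio was 0.303 (0.249 to 0.368). H2-DMa had ratios nearer to 1, 0.816 and 0.769, and H2-DMb1 0.483 and 0.506. In Engineered MSC over PBS 5 of 10 members were at least 2-fold lower (6.19% of all genes) and 0 higher (5.35%). In Native MSC over PBS 6 of 10 were at least 2-fold lower (6.62% of all genes) and 0 higher (4.27%). Between Engineered MSC and Native MSC 2 of 10 were at least 2-fold higher (7.42% of all genes) and 0 lower (3.62%), namely Ciita, 2.51 times (1.70 to 3.61), and H2-Ob, which rests on 4 and 18 UMIs.

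The monocyte-like class joined clusters with very different class II levels. Cluster 8, with Adgre4, Ace and Cx3cr1 among its leading genes, had 1341, 1582 and 1600 CPM of H2-Aa in Engineered MSC, Native MSC and PBS, and 43.2, 45.3 and 42.5 CPM of Ciita. It held 20, 398 and 910 cells, and Native MSC had 0.989 times the PBS level of H2-Aa (0.950 to 1.03), so no gap between these 2 libraries was seen in it. The RNA was uneven over its cells. After thinning, the median cell had 0 of the 4 main transcripts in both Native MSC and PBS. Cells with none made up 64.1% and 53.0%, and cells with at least 10 made up 14.3% and 16.5%. In cluster 5, led by Vcan and Chil3, H2-Aa was 9.22, 18.6 and 69.9 CPM, against 32.5, 13.9 and 55.3 CPM in neutrophil-like cells of the same libraries. Cluster 0, led by Thbs1, had 291, 124 and 623.5 CPM of H2-Aa and 7.06, 2.92 and 15.4 CPM of Ciita. Native MSC was thus below PBS within cluster 0 and level with it in cluster 8. In cluster 5 the levels lay near or below those of neutrophil-like cells, so no difference between libraries is read from it. The makeup of the class differed as well, since cluster 8 held 398 of 2873 Native MSC but 910 of 2771 PBS monocyte-like cells, and cluster 5 held 1164 and 301. Of the 289 Engineered MSC cells, 93 came from cluster 1701, which held 0 Native MSC and 2 PBS cells. It was split from the same first-round cluster as cluster 1700, which was named dendritic cell-like. At whole-cell depth, 7 of its 92 Engineered MSC cells with at least 1000 UMIs reached 10 of the 4 main transcripts per 1000. The whole Engineered MSC monocyte-like class had 13 such cells. Their median summed level of type 2 dendritic cell markers was 880.3 CPM, against 0 in the other 269 cells. Over the class these markers summed to 10.8%, 5.73% and 10.9% of the dendritic cell-like level (Engineered MSC, Native MSC, PBS). H2-Aa stood at 5.11%, 3.97% and 12.9% of that level. The part of dendritic cells or of their RNA in the monocyte-like values was not tested.

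**Figure D5:**
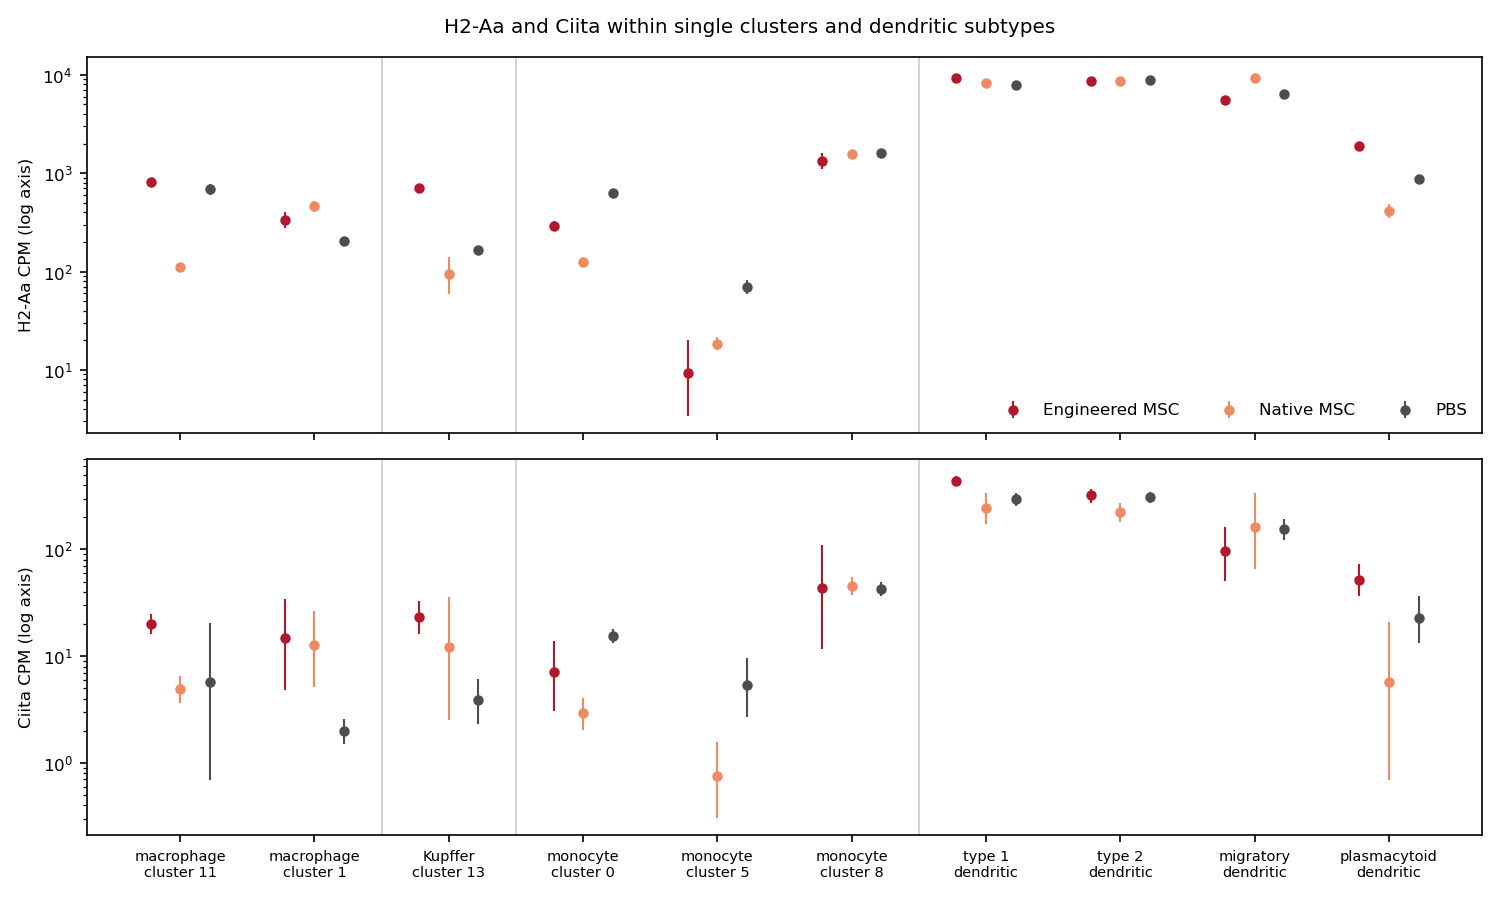
H2-Aa and Ciita levels (CPM, log axis, 95% Poisson bars) within macrophage-like clusters 11 and 1, Kupffer cell-like cluster 13, monocyte-like clusters 0, 5 and 8 and the 4 dendritic cell subtypes, with Engineered MSC, Native MSC and PBS from left to right and levels of 0 not drawn. In cluster 8 the 3 libraries lie between 1341 and 1600 CPM of H2-Aa, whereas in cluster 11 Native MSC (111 CPM) lies below Engineered MSC (811 CPM) and PBS (684 CPM).

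After thinning, H2-Aa was detected in 9.22% of Engineered MSC, 4.89% of Native MSC and 17.9% of PBS monocyte-like cells, and Cd74 in 15.3%, 10.0% and 30.5%. Unthinned shares of H2-Aa were 20.8%, 13.4% and 35.3% at median depths of 7937, 8314 and 6187 UMIs. All exceeded the shares in neutrophil-like cells, in which thinned Cd74 was detected in 4.25%, 4.27% and 12.04%. The direction for Engineered MSC depended on the clustering: with each library clustered on its own, its monocyte-like class had 364 cells, 104 of them (28.6%) dendritic cell-like in the joint clustering, and 3360 CPM of H2-Aa against 398 CPM in PBS. With a mitochondrial limit of 10%, H2-Aa was 394 CPM in Engineered MSC and 730.0 CPM in PBS, and 0 members were at least 2-fold lower.

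Dendritic cell-like cells had close levels of the main transcripts in the 3 libraries. Cd74 was 9783 CPM in Engineered MSC, 9013 CPM in Native MSC and 9998 CPM in PBS, and the ratios of H2-Aa, H2-Ab1, H2-Eb1 and Cd74 to PBS lay between 0.978 and 1.07 for Engineered MSC and between 0.901 and 1.02 for Native MSC. Ciita was 264 CPM in Engineered MSC, 149 CPM in Native MSC and 206 CPM in PBS, 1.28 times the PBS level in Engineered MSC (1.14 to 1.44) and 0.723 times in Native MSC (0.601 to 0.866). The regulator therefore differed more between the libraries than the chains did. After thinning, 5.68%, 28.35% and 13.2% of these cells (Engineered MSC, Native MSC, PBS) had none of the 4 main transcripts.

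Among the loading genes of dendritic cell-like cells, H2-DMa was 567, 552 and 417 CPM in Engineered MSC, Native MSC and PBS, and H2-DMb1 395, 514 and 352 CPM. The inhibitor chain H2-Ob was 90.8 CPM (78.4 to 105) in Engineered MSC, against 41.7 CPM in both Native MSC and PBS, 2.18 times the PBS level (1.73 to 2.75). With each cell counted alike its log2 ratio to PBS was 0.89, against 1.12 over the summed UMIs. H2-Oa, its partner, was 111, 93.3 and 77.3 CPM, 1.44 times the PBS level in Engineered MSC (1.19 to 1.73). H2-Ob was the 1 member of 10 at least 2-fold higher in Engineered MSC over PBS (6.02% of all genes) and in Engineered MSC over Native MSC (10.0%), with 0 lower in each (3.27% and 3.22%). In Native MSC over PBS 0 of 10 were at least 2-fold higher and 0 lower, against 2.77% and 6.20% of all genes.

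The dendritic subtypes did not all share that picture. Type 1-like cells (63, 15 and 64 in Engineered MSC, Native MSC and PBS), known for presenting to CD8 T cells, had 9198, 8253 and 7937 CPM of H2-Aa and 440, 245 and 295 CPM of Ciita. Type 2-like cells (82, 52 and 164), known for presenting to CD4 T cells, had 8614, 8695 and 8845 CPM of H2-Aa and 321, 223 and 307 CPM of Ciita. H2-Ob was higher in Engineered MSC than in PBS in both, 2.23 times in type 1-like (1.59 to 3.17) and 1.68 times in type 2-like cells (1.13 to 2.499). In the migratory-like cells, of which Engineered MSC had 21 and Native MSC 4, H2-Ab1 was 1606, 5892 and 3157 CPM.

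Plasmacytoid dendritic cell-like cells, the type I interferon producers, differed most. H2-Aa was 1876 CPM in 101 Engineered MSC cells, 417 CPM in 57 Native MSC cells and 874 CPM in 141 PBS cells. Engineered MSC was thus 2.15 times (1.95 to 2.36) and Native MSC 0.478 times (0.396 to 0.573) the PBS level. H2-Ab1 gave 2.67 and 0.478 times, H2-Eb1 2.13 and 0.613 times, and Cd74 1.41 and 0.451 times. Ciita was 52.2 CPM in Engineered MSC and 23.0 CPM in PBS, 2.27 times (1.24 to 4.32), and 5.76 CPM in Native MSC. After thinning H2-Aa was detected in 70.3%, 19.3% and 36.0% of these cells, and 9.90%, 59.7% and 29.5% had none of the 4 main transcripts. The same order of the libraries as in macrophage-like cells, Engineered MSC above PBS above Native MSC, was thus seen in a dendritic subtype.

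B cell-like cells, in which nearly every cell is positive, had no member 2-fold apart. H2-Aa was detected after thinning in 93.1%, 97.3% and 95% of Engineered MSC, Native MSC and PBS cells and unthinned in 95.6%, 99.1% and 97.8%, at median depths of 2789, 2293 and 2229 UMIs. Its level was 3407 CPM in Engineered MSC, 4423 CPM in Native MSC and 3550 CPM in PBS. Ciita was 192 CPM (180 to 205), 195 CPM (167 to 227) and 188.5 CPM (166 to 213), and the 3 intervals overlapped. In each comparison 0 of 10 members were at least 2-fold higher and 0 lower, against 8.61% and 3.68% of all genes for Engineered MSC over PBS, 2.58% and 4.29% for Native MSC over PBS, and 10.6% and 2.73% for Engineered MSC over Native MSC.

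The B cell-like ratios that stood farthest from 1 were those of the accessory genes. H2-Oa was 139 CPM in Engineered MSC, 163 CPM in Native MSC and 96.7 CPM in PBS, 1.44 times (1.19 to 1.74) and 1.68 times (1.32 to 2.15) the PBS level. H2-Ob was 401, 351 and 320.3 CPM. Cd74 was 0.846 times the PBS level in Engineered MSC (0.828 to 0.864) and 1.17 times in Native MSC (1.14 to 1.21). B cell markers summed to 13440, 12340 and 12740 CPM in these cells. Since cluster 3 held nearly all of the Engineered MSC B cell-like cells and almost none of the others, a difference between libraries and a difference between clusters cannot be told apart here. H2-Aa was 3410 CPM in cluster 3 of Engineered MSC, 4562 CPM in cluster 1300 of Native MSC (255 cells), and 3424, 3303 and 5559 CPM in clusters 1301, 1302 and 1303 of PBS (202, 150 and 108 cells), so clusters of 1 library differed as much as the libraries did.

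H2-DMb1 and H2-DMb2, close copies whose shared reads the counting could split or drop, divided by cell class. H2-DMb2 made up 76.0% (74.2 to 77.8%), 83.7% (79.9 to 86.9%) and 74.4% (70.9 to 77.6%) of the UMIs of both genes in B cell-like cells of Engineered MSC, Native MSC and PBS. In macrophage-like cells it was 2.95%, 3.39% and 3.66%, in monocyte-like cells 5.71%, 4.30% and 2.70%, and in dendritic cell-like cells 12.5%, 8.32% and 16.8%. The split thus differed more between classes than between libraries. In PBS migratory dendritic cell-like cells it was 54.1% (43.0 to 65.0%).

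Endothelium-like cells gave no value of H2-Aa that could be read as expression. The other members were not set against the background classes one by one here. H2-Aa was 47.2 CPM in Engineered MSC, 7.06 CPM in Native MSC and 62.6 CPM in PBS, and hepatocyte-like cells of the same libraries had 50.7, 18.7 and 79.0 CPM. After thinning H2-Aa was detected in 3.01%, 0% and 5.18% of endothelium-like cells and unthinned in 12.1%, 7.52% and 22.4%, at median depths of 5576, 9115 and 6008 UMIs. Neutrophil-like cells, at 2672.5, 2830 and 2139 UMIs, gave 2.98%, 1.51% and 4.42% thinned. By counts, 1 of 8 members, Ciita, was at least 2-fold lower in Engineered MSC than in PBS (8.17% of all genes) and 0 higher (11.9%), on 22 and 30 UMIs. In Native MSC over PBS 6 of 7 were at least 2-fold lower (5.98% of all genes) and 0 higher (7.14%), and in Engineered MSC over Native MSC 7 of 8 were higher (10.1%) and 0 lower (7.37%). Among these H2-DMb1 had 0 UMIs in Native MSC, which against a floor of 3 counts gives Engineered MSC at least 1.56-fold higher. The same order of the libraries, Native MSC lowest, held for H2-Aa in hepatocyte-like, neutrophil-like and T cell-like cells. H2-Aa was 30.6 CPM in cluster 4 of Engineered MSC, and within cluster 10 it was 8.70, 7.81 and 63.1 CPM in Engineered MSC, Native MSC and PBS. Sinusoidal endothelial markers summed to 16030, 11080 and 8939 CPM in the class.

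The class II RNA of the 3 libraries was divided differently over the cell classes. Cell makeup and the level within classes both differed between the libraries, and the part of each was not tested. Of the 161809 UMIs of the 4 main transcripts in Engineered MSC, 42.1% were in B cell-like cells and 33.6% in dendritic cell-like cells, which were 17.6% and 2.92% of the cells. Of 83368 in Native MSC, 29.0% were in monocyte-like, 28.7% in dendritic cell-like and 19.8% in B cell-like cells. Of 199080 in PBS, 37.2% were in dendritic cell-like, 29.0% in monocyte-like and 12.4% in macrophage-like cells. Ciita, with 1774, 600 and 1435 UMIs in all, lay to 52.1% in B cell-like cells of Engineered MSC and to 41.9% in dendritic cell-like cells of PBS.

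Genes around the class II set were taken from lists made for it. They were compared over whole classes only. Most macrophage-like cells of PBS lay in another cluster than those of both MSC libraries, so there a difference between libraries and one between clusters cannot be told apart. Of 8 genes of the interferon-gamma route to Ciita, 2 were at least 2-fold higher in Engineered MSC than in PBS macrophage-like cells and 0 lower (8.12% and 5.29% of all genes): Irf1, the factor that acts on the inducible Ciita promoter, at 98.3 against 39.2 CPM (2.51 times, 2.25 to 2.80), and the receptor chain Ifngr1 at 281 against 128 CPM (2.20 times, 2.07 to 2.35). In Kupffer cell-like cells 3 of the 8 were at least 2-fold higher and 0 lower (11.6% and 5.76% of all genes), among them Ifngr1 at 297 against 122.5 CPM and Irf1 at 174.5 against 74.6 CPM. Ifngr1 was higher in Native MSC macrophage-like cells too, 257.5 CPM against 127.6 CPM in PBS, although their class II chains were lower. In monocyte-like cells 0 of the 8 were 2-fold apart between Engineered MSC and PBS. Ifng itself was 71.4 CPM (63.7 to 79.7) in T cell-like cells of Engineered MSC, 163 CPM (145 to 183) in Native MSC and 99.95 CPM (83.2 to 119) in PBS. That order by level was not the order of the macrophage class II genes. By amount these were 317, 288 and 125 UMIs, from 1046, 338 and 383 T cell-like cells. In NK or ILC1-like cells Ifng was 181 CPM (151 to 216), 229 CPM (195 to 267) and 148 CPM (94.6 to 219.8), with overlapping intervals of Engineered MSC and PBS. There it had 124, 162 and 24 UMIs, from 155, 105 and 50 cells. The part of interferon-gamma in the class II levels was not tested.

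Of 10 factors that bind class II promoters or Ciita's own, 1 was at least 2-fold higher in Engineered MSC than in PBS macrophage-like cells, the X box factor Rfx5 at 6.96 against 3.42 CPM (2.04 times, 1.33 to 3.06), and 0 lower. At 8.12% of all genes higher, 1 of 10 is near the background. The Y box factor Nfya was lower in Native MSC macrophage-like cells, 38.1 against 76.4 CPM in PBS. Of 9 proteases and related genes of the loading compartment, 0 were 2-fold apart between Engineered MSC and PBS macrophage-like cells. In dendritic cell-like cells 3 of the 9 were at least 2-fold lower in Engineered MSC (3.27% of all genes) and 0 higher (6.02%): Ctsd at 82.7 against 315 CPM, Ifi30, the thiol reductase, at 447 against 1077 CPM, and Lgmn, a protease, at 153 against 360.5 CPM. In B cell-like cells 2 of the 9 were at least 2-fold lower (3.68% of all genes) and 0 higher (8.61%), Ctsd at 88.2 against 363 CPM and Ctsb at 117.5 against 437 CPM. The other 6 genes in dendritic cell-like and 7 in B cell-like cells were less than 2-fold apart. Ctsd was far higher in Kupffer cell-like cells, at 2675 CPM in Engineered MSC and 5558 CPM in PBS. Macrophage-like cells were 3.99% of the kept cells of Engineered MSC and 20.7% of those of PBS. No background level was taken for these genes, and the part of free RNA in their values was not tested.

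Of 7 costimulators, 1 was at least 2-fold higher in Engineered MSC than in PBS macrophage-like cells, Cd80 at 33.1 against 16.4 CPM, and 0 lower, which is near the background of 8.12% of all genes higher. Against Native MSC 2 were higher (5.18% of all genes) and 0 lower (1.60%), among them Cd40 at 16.5 against 8.02 CPM. In Engineered MSC over PBS dendritic cell-like cells 2 of the 7 were at least 2-fold lower (3.27% of all genes) and 0 higher (6.02%). These were Cd80 at 55.3 against 111.5 CPM and Pdcd1lg2 at 6.15 against 21.55 CPM. Native MSC over PBS also had 2 lower there (6.20%) and 0 higher (2.77%). These were Cd40 at 17.9 against 40.4 CPM and Cd274 at 61.6 against 130 CPM. In monocyte-like cells of Native MSC, Cd40 was 3.43 CPM against 14.1 CPM in PBS, and Cd83, which protects class II from degradation, 88.8 against 191 CPM. Of the 3 partners of CD74, the coreceptor Cxcr4 was at least 2-fold lower in Engineered MSC than in PBS dendritic cell-like cells. It was 48.7 against 138 CPM there, 308 against 621 CPM in B cell-like and 13.8 against 29.0 CPM in Kupffer cell-like cells. It was 1 of 3, with 0 higher, where 3.27%, 3.68% and 5.76% of all genes were lower. In endothelium-like cells all 3 were lower (8.17% of all genes). Cxcr4 was 3.79 against 19.7 CPM, Mif 35.9 against 174 CPM and Cd44 18.5 against 56.4 CPM. In macrophage-like and monocyte-like cells 0 were 2-fold apart. In Native MSC monocyte-like cells Cxcr4 was 165 against 337 CPM in PBS.

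Across 33 class sums (11 classes in 3 libraries), the gene whose log2 level was most like the mean of the 4 main transcripts was Cd83 (Pearson r = 0.943). Next came Cd180 (0.925), Fgd2 (0.924), Pkib (0.918), Rnase6 (0.908) and Ryr1 (0.906), followed by Slc15a4, Blnk, Ly86 and Tnfrsf13b (0.899 to 0.890). Among the members, Ciita had an r of 0.936, H2-DMb1 0.960 and H2-DMa 0.932, while H2-Oa had 0.803, H2-DMb2 0.778 and H2-Ob 0.717. Ciita, H2-DMa and H2-DMb1 thus followed the main transcripts more closely than H2-DMb2, H2-Oa and H2-Ob. These sums share libraries, and the r describes them without a test.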

How the data were processed

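Whole livers were dissociated and sequenced with the 10x 3′ v3.1 chemistry, 1 library per group. Per the submitters' processing notes, Cell Ranger 7.1.0 and GRCm39 were used. The authors deposited raw UMI counts per gene and cell barcode (34099 genes), and these counts were used as deposited. The annotation release, and any strand setting beyond the kit, are not given in the sources used here.

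Barcodes were kept from 200 detected genes and 500 UMIs upwards, with no more than 20% of UMIs from mitochondrial genes, and the barcodes with the highest Scrublet doublet scores were removed (0.8% per 1000 barcodes, which gave 973, 1054 and 923 in Engineered MSC, Native MSC and PBS). The mitochondrial limit removed 852, 167 and 289 barcodes. The 3 libraries were clustered together without correction on 2000 variable genes without the 10 members (7 had been among them), 30 principal components and 15 neighbours, with Leiden resolution 1 (scanpy 1.11.5, leidenalg 0.10.2, igraph 0.11.9, scikit-learn 1.9.0). This gave 35 clusters, of which 7 were split, 84 in the end. A cluster was named from marker lists when its best list scored at least 0.5, led the next by 0.5 and had at least 3 markers 1.5-fold up.

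Counts were summed per class and library. Levels have exact Poisson, ratios exact conditional binomial and shares exact binomial 95% intervals (scipy 1.17.1, numpy 2.4.6), all for counting error only. A gene counts as higher or lower at a ratio of at least 2 or at most 0.5, with at least 20 UMIs in the pair and 0.5 in place of 0. Shares are given after thinning each cell to 1000 UMIs, leaving out shallower cells, and unthinned. On simulated counts of 34099 genes with 200 changed, 97.5% of the intervals for Engineered MSC against PBS held the true ratio, and 94.0% for Native MSC against PBS.

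All 10 members are named. Other genes are named when, within a list, they are among the up to 4 widest ratios past 2-fold with at least 50 UMIs in the pair, or among the 10 genes of highest correlation with the 4 main transcripts on log2(CPM + 10) among genes with at least 1000 UMIs. Members, lists and markers were chosen with earlier results of these data known. Alternatives changed the clustering, the classing, the filters, the weighting and the background. Within-cluster values were chosen after seeing the data.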

Additional observations from a re-analysis of the deposited data

Results flagged for a closer look

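The direction of the Engineered MSC to PBS ratio was opposite in macrophage-like or Kupffer cell-like cells and in monocyte-like cells, and with 1 library per group this difference between classes was not tested. For H2-Aa the log2 ratio was 1.88 in macrophage-like, 1.91 in Kupffer cell-like and -1.27 in monocyte-like cells, so the classes differed by 3.15 and 3.18 from monocyte-like cells. For H2-Ab1 the log2 ratios were 1.97, 1.73 and -1.30, a difference of 3.27 for macrophage-like and 3.03 for Kupffer cell-like cells. H2-Eb1 had 2.08, 1.90 and -1.22, differences of 3.3 and 3.12. Cd74 had 1.49, 1.51 and -1.23, differences of 2.72 and 2.74. The clusters that make up the macrophage-like and monocyte-like classes differed between the libraries, and the part this had in the opposite directions was not tested.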

How the results depend on the processing

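Of 374 counts of members at least 2-fold higher or lower, 321 stayed within 1.5 times the main count under the alternatives and 53 did not. Of 1667 ratios of single genes, 472 left the main interval. A further 18, all at least 2-fold apart in the main run, changed direction. Smaller ratios that changed direction were not counted apart. Of 340 shares of cells, 102 left the main interval. The Kupffer cell-like count for Engineered MSC over PBS stayed between 5 and 7 in every alternative run, with a log2 ratio of H2-Aa of 1.86 to 2.45.

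Below, pairs are Engineered MSC (E), Native MSC (N) and PBS (P), and each count is that under the alternative. Within cluster 11 (chosen after seeing the data), macrophage-like E over P had 2 higher, N over P 0 higher and 4 lower, Cd74 E over P a log2 ratio of -0.08 and Ciita N over P -0.19. With cells classed by markers alone, macrophage-like E over P had 0 higher, E over N 1 and N over P 0 (Ciita -0.09), monocyte-like E over N 0 higher and 6 lower (Ciita -2.23), and dendritic cell-like E over N 2 higher. With each library clustered on its own, monocyte-like E over P had 10 higher and 0 lower, with log2 ratios of 2.52 for Cd74, 3.08 for H2-Aa, 3.05 for H2-Ab1, 3.39 for H2-Eb1 and 1.68 for H2-DMb1; E over N had 10 higher, and endothelium-like E over N 4 higher and E over P 6 lower. Within monocyte-like cluster 8, N over P had 1 higher and 0 lower (log2 Cd74 0.02, Ciita 0.09, H2-Ab1 0.03, H2-Eb1 0.11); within cluster 0, E over N had 6 and E over P 1 higher; within cluster 5, E over N 0 higher and 1 lower. At resolution 2 monocyte-like E over P had 1 lower and endothelium-like 5 lower. A mitochondrial limit of 10% gave monocyte-like E over P 0 lower and E over N 1 higher, macrophage-like N over P 0 higher and endothelium-like E over P 3 lower, and no limit gave 1 higher for monocyte-like E over N and 5 lower for endothelium-like E over P. A minimum of 500 genes gave 5 lower, and no minimum of UMIs 2 lower, for endothelium-like E over P. With doublets kept, macrophage-like N over P had 0 higher and 1 lower, monocyte-like E over P 1 higher and 3 lower, and endothelium-like E over P 1 higher and 0 lower (Ciita 0.03). With each cell counted alike, macrophage-like E over P had 8 higher and N over P 0 higher and 1 lower, dendritic cell-like E over P and E over N 0 higher, and endothelium-like E over P 1 higher and E over N 1 lower (Ciita -1.09; N over P 0.02). With members among the clustering genes, monocyte-like E over N had 1 higher and 1 lower and macrophage-like N over P 1 lower. With the neutrophil-like level subtracted, endothelium-like E over N had 4 higher and 2 lower (Ciita -3.04, H2-DMb1 -2.56), E over P 6 higher and N over P 1 higher and 1 lower, monocyte-like E over P 2 higher and macrophage-like E over P 1 lower. The cause of these moves was not tested.

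No paired analysis was possible because each group is 1 mouse. Depth limits H2-DMb2, H2-Oa and H2-Ob in myeloid cells, Ciita outside B cell-like and dendritic cell-like cells, and every Native MSC value in Kupffer cell-like cells (32 cells). Class names were rebuilt from markers. Differences between the 3 animals, in cell dissociation or in free RNA cannot be told apart from the treatment.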

Other observations

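Plasma cell-like cells, the antibody-secreting stage at which B cells are known to shut Ciita off, were few, with 49 in Engineered MSC, 9 in Native MSC and 15 in PBS. Ciita had 1 UMI in Engineered MSC (1.19 CPM), 0 UMIs in Native MSC and 4 UMIs in PBS (18.6 CPM), against 188.5 to 195 CPM in B cell-like cells. H2-Aa was 122, 374 and 478 CPM, below the 3407 to 4423 CPM of B cell-like cells in every library. Cd74 was 1718, 3199 and 1888 CPM.

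T cell-like cells had low levels of H2-Ob, 12.6 CPM (9.52 to 16.4) in Engineered MSC, 7.36 CPM in Native MSC and 13.6 CPM in PBS, above its 0 to 1.496 CPM in neutrophil-like cells. H2-Oa was 8.78, 6.79 and 5.60 CPM in T cell-like cells, against 1.48, 0.622 and 0.748 CPM in neutrophil-like cells. H2-DMa was 21.2, 29.4 and 27.99 CPM, against 4.43, 5.85 and 11.96 CPM. H2-Aa was 29.5 CPM in T cell-like and 32.5 CPM in neutrophil-like cells of Engineered MSC, and 12.4 and 13.9 CPM in Native MSC, so the chain showed no such excess in the MSC libraries.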
